A study of Sus scrofa with 4 samples.

Results

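The 3 genes described here, FOXO1, FOXO3 and FOXO4, encode the main FOXO forkhead transcription factors, and they are 3 of the 29884 rows of a table of read counts from porcine granulosa cells. They were taken by gene symbol, whatever their values, and all 3 had enough reads to be tested. Granulosa cells are the somatic support cells of the oocyte inside its follicle. These came from ovarian antral follicles, the fluid-filled stage, and part of the cells of each follicle was used to read the cell cycle by flow cytometry. The remaining cells were sequenced in 2 groups: 2 libraries with a high share of cells in G0/G1, the phases that precede DNA replication, and 2 with a low share. The labels give no genotype, agent, age or breed for either group, no oxygen condition, and they do not say whether libraries are from different animals. The tests therefore measure only how far these libraries differ, part of which may be technical.

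FOXO proteins bind DNA through a forkhead domain and switch on genes of growth arrest, stress defence, autophagy and cell death. Insulin and growth factors act through PI3K and AKT, and AKT phosphorylates the FOXO proteins, which then bind 14-3-3 proteins and leave the nucleus. Much of their control therefore acts on the protein, which RNA counts do not measure. In the ovary FOXO3 is best known for holding the oocytes of primordial follicles in reserve, and FOXO1 is the family member best known in granulosa cells, where follicle-stimulating hormone acts through AKT to keep it out of the nucleus.

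All 3 FOXO genes stood higher in both high G0/G1 libraries than in either low one. By mean level the ratio of high to low was largest for FOXO1 and smallest for FOXO3. The fitted fold was 2.46 for FOXO1, 2.14 for FOXO4 and 1.61 for FOXO3. None of the 3 passed the test after adjustment over all genes. Levels are given in CPM, counts relative to the library total after scaling between libraries (TMM), and they are compared across libraries for 1 gene at a time, since gene lengths were not used.

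FOXO1 (chromosome 11, 15317222 to 15410059 in Sscrofa11.1) had 1422 and 1407 CPM in high replicates 1 and 2 and 482 and 667 CPM in low replicates 1 and 2. The high libraries were within 1.01-fold of each other, the low ones differed 1.38-fold, and the lower high library was 2.11-fold above the higher low one. Its mean was 1414 ± 10.8 CPM (SD, n = 2) in high and 574 ± 131 CPM in low.

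FOXO3 (chromosome 1, 74626673 to 74760323) had 127 and 96.0 CPM in high replicates 1 and 2 and 75.7 and 62.6 CPM in low replicates 1 and 2. The groups did not overlap, but the gap between them was 1.27-fold, less than the 1.32-fold difference between the 2 high libraries. Its mean was 112 ± 21.9 CPM (SD, n = 2) in high and 69.1 ± 9.31 CPM in low.

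FOXO4 (chromosome X, 57132549 to 57140377) had 25.5 and 30.1 CPM in high replicates 1 and 2 and 11.3 and 14.7 CPM in low replicates 1 and 2. The gap between the groups was 1.74-fold, wider than the 1.18-fold difference within the high libraries and the 1.30-fold difference within the low ones. Its mean was 27.8 ± 3.25 CPM (SD, n = 2) in high and 13.0 ± 2.39 CPM in low. Counting error was small beside these differences even for the fewest reads, 360 for FOXO4 in low replicate 1, with an exact 95% Poisson interval of 324 to 399 that covers counting error only.

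**Figure D1:**
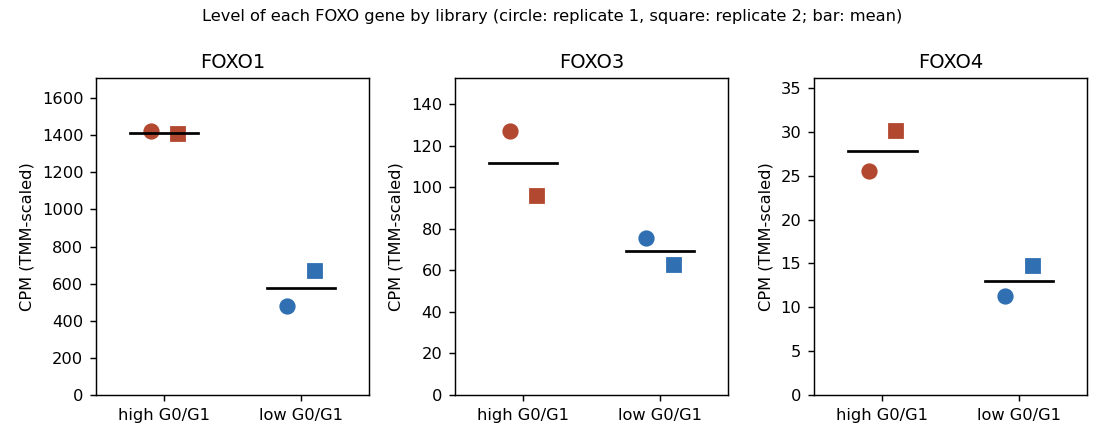
Level of FOXO1, FOXO3 and FOXO4 in CPM (each panel's axis starts at 0) in the 2 high and 2 low G0/G1 libraries, with points for libraries and bars for group means. In each panel both high libraries lie above both low ones, with a gap of 2.11-fold for FOXO1, 1.27-fold for FOXO3 and 1.74-fold for FOXO4.

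In edgeR's quasi-likelihood test over 14352 genes, the log2 fold change (high minus low) was 1.30 ± 0.26 for FOXO1 (SE, adjusted p = 0.155). It was 1.10 ± 0.27 for FOXO4 (edgeR adjusted p = 0.169) and 0.69 ± 0.24 for FOXO3 (edgeR adjusted p = 0.213). The test called 0 genes of all those tested (0.0%), although 9.92% were higher and 10.8% lower at an unadjusted p under 0.05. The unadjusted p was 0.00383 for FOXO1, 0.00897 for FOXO4 and 0.0340 for FOXO3. The high libraries both exceeded the low ones in 26.8% of tested genes and both fell short of them in 29.8%, so a lack of overlap alone was common. Of the genes tested, 92.8% had a lower log2 fold change than FOXO1, 90.3% a lower one than FOXO4 and 82.1% a lower one than FOXO3.

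The choice of test decided the call for FOXO1 and FOXO4. DESeq2 called FOXO1 (adjusted p = 3.6e-04) and FOXO4 (adjusted p = 0.0159) but not FOXO3 (adjusted p = 0.135), on a background of 5.79% of genes called higher and 5.48% called lower. With 1 library left out, DESeq2 still called FOXO1 when that was a high library (adjusted p = 0.00111 and 0.00213), and FOXO4 when it was high replicate 1 (adjusted p = 0.0419) but not high replicate 2 (adjusted p = 0.234). With either low library left out DESeq2 called none of the 3, with an adjusted p for FOXO1 of 0.240 without replicate 1 and 0.0625 without replicate 2 of the low group. When each library was left out in turn, edgeR's log2 fold change ran from 1.15 to 1.57 for FOXO1, from 0.97 to 1.31 for FOXO4 and from 0.47 to 0.90 for FOXO3.

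**Figure D2:**
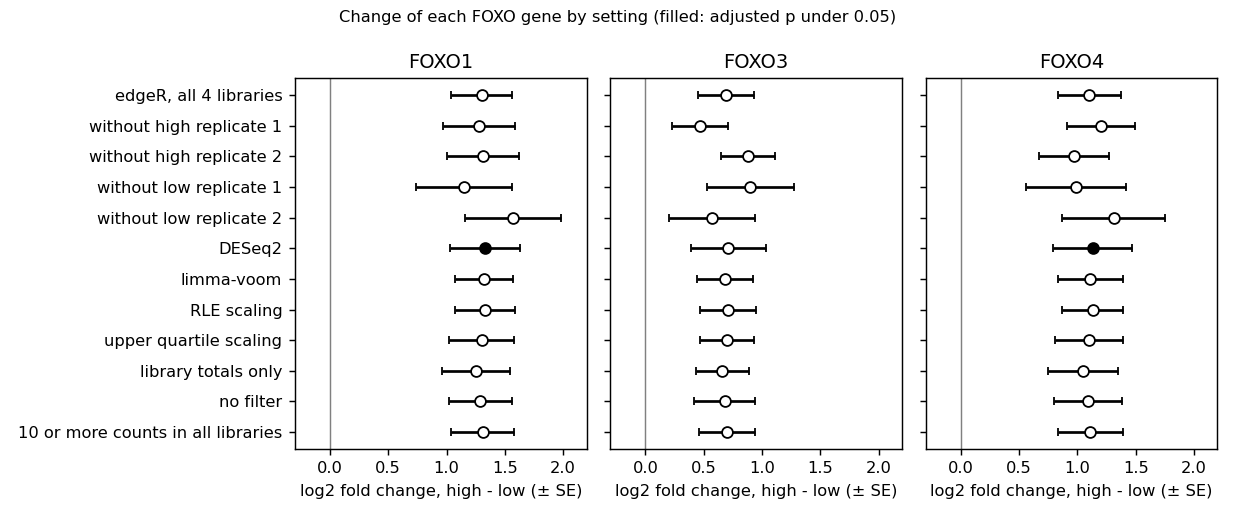
Log2 fold change, high minus low G0/G1, with its SE for each FOXO gene in edgeR with all 4 libraries or 1 left out, with other scalings or filters, and in DESeq2 and limma-voom on all 4 libraries, with filled points where the adjusted p is under 0.05. All points drawn lie above 0, and the filled ones are DESeq2's for FOXO1 (1.33) and FOXO4 (1.13).

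Library totals ran from 27442850 to 32674921 counts. The 11 granulosa marker genes summed to between 11104 and 18277 CPM, of which INHA alone gave 6705 to 10576 CPM. They did not share a direction. Both high libraries were above both low ones for 4 of them and below for 7 (all genes: 26.8% and 29.8%). The 8 fibroblast and smooth muscle markers summed to 1159 CPM in low replicate 2 against 45.8 to 131 CPM in the other libraries. The 6 endothelial markers summed to 46.8 CPM in high replicate 2 and 52.5 CPM in low replicate 2. Their sums were 16.6 CPM in high replicate 1 and 7.15 CPM in low replicate 1. The theca gene CYP17A1 stood at 51.5 CPM in low replicate 2 against 0.125 to 1.02. The 5 theca markers were divided. INSL3 was higher in both low libraries, at 75.3 and 260 CPM against 17.6 and 30.0 CPM in high. PTCH1 and NR2F2 were higher in both high libraries, and TCF21 stood at no more than 1.91 CPM. Without low replicate 2 the log2 fold change was 1.57 for FOXO1, 1.31 for FOXO4 and 0.57 for FOXO3. Leukocyte markers summed to at most 5.44 CPM, and of the oocyte markers ZP2, ZP4 and FIGLA had no counts while GDF9 stood at 6.40 to 11.5 CPM. In bulk samples, fewer cells of a type and less RNA per cell cannot be told apart.

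The 3 genes did not share 1 pattern across the libraries. FOXO1 was level between the high libraries, FOXO3 was higher in high replicate 1, and FOXO4 was higher in high replicate 2. Among the low libraries FOXO1 and FOXO4 were higher in replicate 2 and FOXO3 in replicate 1. The high libraries also differed in cycle genes, with 11 S phase markers summing to 814 CPM in high replicate 1 and 356 in high replicate 2, against 2470 and 2116 in the low libraries. FOXO1 was thus at the same level in high libraries whose S phase sums differed, and the part of cell cycle share in the FOXO values was not tested.

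Ratios of counts within a library ask whether 1 FOXO gene differed more than another, and library scaling does not touch them. The log2 ratio of FOXO1 to FOXO3 was 3.48 and 3.87 in high and 2.67 and 3.41 in low, a difference of 0.64 (exact permutation test, two-sided p = 0.33, adjusted over 3 ratios p = 0.50). That of FOXO1 to FOXO4 was 5.80 and 5.55 in high and 5.41 and 5.51 in low, a difference of 0.22 (exact p = 0.33, adjusted p = 0.50). For FOXO3 to FOXO4 it was 2.32 and 1.68 in high and 2.74 and 2.09 in low, so the groups overlapped, with a difference of -0.42 (exact p = 0.667, adjusted p = 0.667). With 2 libraries against 2 the smallest two-sided exact p is 0.33, so this test could not have reached a p under 0.05. Leaving out low replicate 1 took the FOXO1 to FOXO3 difference to 0.26, and leaving out low replicate 2 took it to 1.01. The other pairs moved by over 1.5 times as well, to 0.09 without high replicate 1 for FOXO1 to FOXO4, and for FOXO3 to FOXO4 to -0.10 without high replicate 2, -0.09 without low replicate 1, -0.74 without high replicate 1 and -0.75 without low replicate 2.

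The genes whose profile over the 4 libraries was closest to each member were found by the root mean square difference of log2 CPM after centring each gene on its own mean, among 11817 genes whose average log2 CPM was at least 1. FOXO4 was close to FOXO1, at 0.145 and place 42 in the order of likeness, while FOXO3 was at 0.435 and place 1229. Closest to FOXO1 were LOC110259668 (0.052), MAATS1 (0.067), RARRES1 (0.068), LOC110257311 (0.074) and LOC100525572 (0.078). RARRES1, a retinoid-responsive gene, had 10572 and 9535 CPM in high replicates 1 and 2 and 3407 and 5110 CPM in low replicates 1 and 2. Closest to FOXO3 were RECK (0.026), an inhibitor of matrix metalloproteases, RIF1 (0.033), which times DNA replication, SECISBP2L (0.036), DCUN1D1 (0.037) and the reader of methylated RNA YTHDC1 (0.040). For FOXO4 the closest were NUDT16 (0.019), SPATA6L (0.027), LOC100624136 (0.027), DYNLT3 (0.035) and RENBP (0.043). Over 4 libraries such likeness is a description only.

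The neighbours of each FOXO gene on its chromosome, looked up after the values were seen, differed in how they compared between groups. LOC102160118, a long non-coding RNA gene 0.6 kb past the end coordinate of FOXO1 (chromosome 11, 15410633 to 15449633), had 5.40 and 6.42 CPM in high replicates 1 and 2 and 0.471 and 1.56 CPM in low replicates 1 and 2. Its log2 fold change was 2.54 ± 0.70 (SE, edgeR adjusted p = 0.176). It rests on 15 and 45 reads in the low libraries, and with no strand setting given, reads that run past the FOXO1 model cannot be told from its own. MRPS31, which follows 40.6 kb from FOXO1 and encodes a mitochondrial ribosomal protein, had a log2 fold change of -0.53 ± 0.27 (edgeR adjusted p = 0.317). On the other side the nearest tested genes were the non-coding LOC102159588 (0.88 ± 0.41), at 363.4 kb, and COG6 (-0.23 ± 0.21), at 579.4 kb.

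SESN1, the sestrin gene that is itself a FOXO target, is the second tested gene past FOXO3, at 296.4 kb on chromosome 1. It had 45.0 and 58.2 CPM in high replicates 1 and 2 and 16.0 and 14.1 CPM in low replicates 1 and 2, with a log2 fold change of 1.78 ± 0.25 (SE, edgeR adjusted p = 0.125). The gene between them, ARMC2, whose annotated span runs into that of SESN1, had 0.52 ± 0.46. On the other side of FOXO3, AFG1L (-0.13 ± 0.34) and SNX3 (0.01 ± 0.20) had log2 fold changes near 0. FOXO4 overlaps CXHXorf65, which had at most 3 reads in a library. Its near neighbours SNX12 (-0.02 ± 0.21), IL2RG (0.17 ± 0.48) and MED12 (-0.26 ± 0.22) were close to 0 too, and SLC7A3, an amino acid transporter gene 190.2 kb away, had 0.99 ± 0.31.

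**Figure D3:**
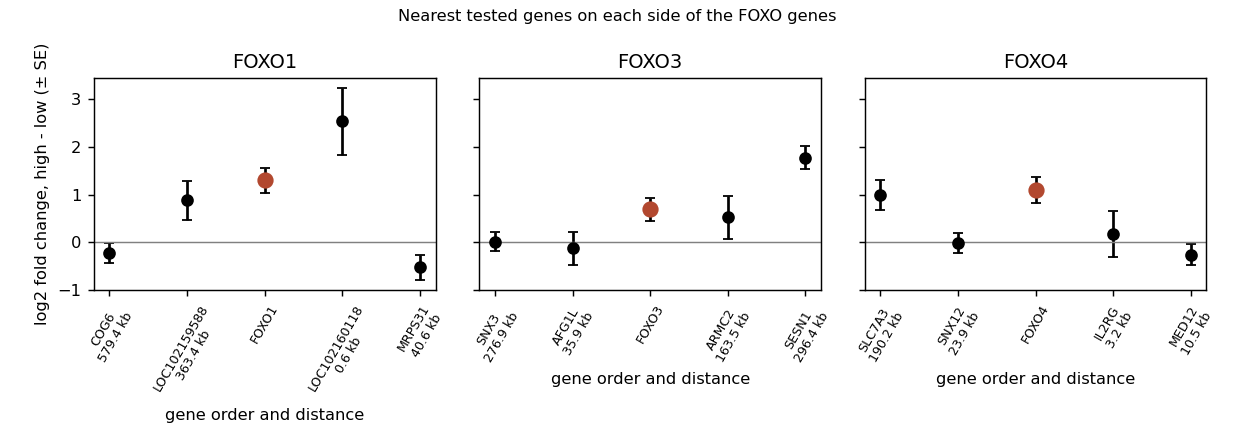
Log2 fold change, high minus low G0/G1, with its SE for each FOXO gene (red) and the 2 nearest tested genes on each side (black), in gene order with the distance in kb. The values above 1 beside the FOXO genes are those of LOC102160118 (2.54) next to FOXO1 and SESN1 (1.78) past FOXO3.

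Among known FOXO targets, arranged in 5 lists by role, 30 of 39 tested genes were higher in the high G0/G1 libraries and 9 were lower, where 49.4% of all genes tested were higher. The median log2 fold change was 0.99, against -0.01 over all genes tested. Every high library was above every low one in 24 of them and below in 5 (all genes: 26.8% and 29.8%). By edgeR 0 passed after adjustment, and 18 were higher and 1 lower at an unadjusted p under 0.05 (all genes: 9.92% and 10.8%). DESeq2 called 15 higher and 1 lower (all genes: 5.79% and 5.48%). The lists hold genes known to respond to FOXO factors in other tissues, and several also respond to other factors. They were chosen with earlier results of these data known, so the counts are a description and not a test.

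Targets that feed back on growth factor signalling had the highest median, 1.78 over 10 tested genes, of which 8 were higher and 2 lower. IRS2, which couples the insulin receptor to PI3K, had 143 and 165 CPM in high replicates 1 and 2 and 37.0 and 33.9 CPM in low replicates 1 and 2. Its log2 fold change was 2.12 ± 0.21 (SE, edgeR adjusted p = 0.125). PIK3IP1, an inhibitor of PI3K, stood at 65.6 and 113 CPM against 3.73 and 10.8 CPM, a log2 fold change of 3.62 ± 0.61 (edgeR adjusted p = 0.138). RICTOR, the subunit that defines mTORC2, stood at 78.9 and 103 CPM against 36.3 and 16.5 CPM (1.78 ± 0.42, edgeR adjusted p = 0.169). For these 3 and SESN1 the groups did not overlap. The list's median was 1.05 without high replicate 2.

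Of 9 targets listed under the cell cycle, 8 were higher and 1 lower, with a median of 1.03. CDKN1B, the gene of the cyclin-dependent kinase inhibitor p27, stood at 87.8 and 89.9 CPM in high and at 52.8 and 55.9 CPM in low (0.71 ± 0.19, edgeR adjusted p = 0.176). CCNG2, an atypical cyclin of resting cells, stood at 128 and 161 CPM against 77.3 and 64.2 CPM (1.03 ± 0.23, edgeR adjusted p = 0.165). These genes had little spread within a group. KLF6 (1.82 ± 0.54), a zinc finger factor, and CITED2 (1.97 ± 0.63), a transcriptional coregulator, had larger differences and more spread, with CITED2 at 205 and 61.8 CPM in the low libraries, and without low replicate 1 their values were 2.87 and 3.15. CDKN1A, the gene of p21 and one of those in the study's title, was at 101 and 158 CPM against 72.9 and 22.6 CPM, and its log2 fold change of 1.44 ± 0.59 went to 2.58 when low replicate 1 was left out and to 0.85 when low replicate 2 was.

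Autophagy and atrophy targets had a median of 0.70, with 7 of 9 tested higher and 2 lower, and of 0.46 without high replicate 2. GABARAPL1, an ATG8 family protein of the autophagosome membrane, stood at 312 and 564 CPM in high and at 159 and 65.5 CPM in low (1.97 ± 0.53, edgeR adjusted p = 0.176). ATG14, a subunit of the autophagy PI3K complex, stood at 41.7 and 47.9 CPM against 21.8 and 19.0 CPM (1.13 ± 0.23, edgeR adjusted p = 0.155). The opposite order held for BNIP3, a mitophagy receptor that is also induced by hypoxia, at 74.2 and 98.4 CPM in high and 239 and 189 CPM in low (-1.31 ± 0.26, edgeR adjusted p = 0.153). TFEB, a regulator of lysosome genes, had a log2 fold change of 1.95 ± 0.67 that was 0.92 without high replicate 2.

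Oxidant defence and metabolic targets were divided, 3 higher and 3 lower of 6 tested, with a median of 0.20 that was 0.04 without low replicate 1, 0.40 without high replicate 1, 0.58 without low replicate 2 and -0.13 in limma-voom, where its sign turned. The antioxidant enzyme genes SOD2 (-0.38 ± 0.25) and CAT (-0.15 ± 0.28) did not separate in the direction of the FOXO genes, and SOD2 had -0.08 without low replicate 1. SELENOP, a secreted selenoprotein, stood at 1572 and 4021 CPM against 600 and 979 CPM (1.82 ± 0.53), and PDK4, which restrains pyruvate oxidation, had 2.07 ± 0.77. Without high replicate 2 they had 1.0 and 0.85. Of 5 tested cell death targets 4 were higher and 1 lower, with a median of 0.85, or 0.47 with high replicate 2 left out and 1.68 with low replicate 1 left out. BCL6, a transcriptional repressor, stood at 46.4 and 39.9 CPM against 23.0 and 9.12 CPM (1.42 ± 0.47), a difference of 2.30 when low replicate 1 was left out and of 0.92 when low replicate 2 was. BCL2L11, which encodes the death-promoting protein BIM, overlapped between groups at 27.8 and 97.9 against 36.8 and 14.7 CPM, and its log2 fold change of 1.29 ± 0.72 ran from 0.11 (without high replicate 2) to 2.17 (without low replicate 1).

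**Figure D4:**
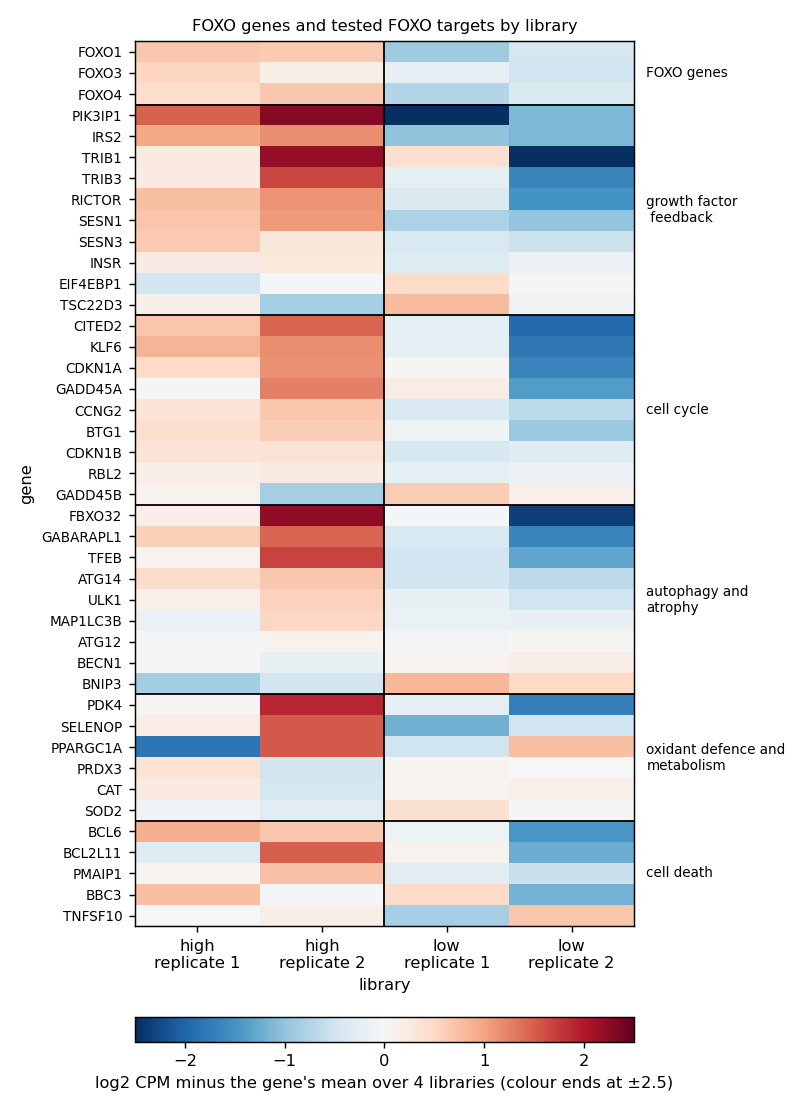
Log2 CPM of the FOXO genes and 39 tested FOXO targets in each library, as the difference from the gene's mean over the 4 libraries (red above, blue below, colours end at ±2.5), with lines between roles. Most rows are red in the 2 high columns and blue in the 2 low ones, BNIP3 is the reverse, and many targets are strongest in high replicate 2 and weakest in low replicate 2.

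The average of the targets did not have the library order of any FOXO gene. Averaged over the 39 targets, the centred log2 CPM was 0.23 in high replicate 1 and 0.73 in high replicate 2, and -0.20 in low replicate 1 and -0.76 in low replicate 2. FOXO1 had nearly the same level in both high libraries, and among the low libraries it was lower in replicate 1, where the average of the targets was higher. Single targets differed in order. PIK3IP1 and SELENOP had the library order of FOXO4, SESN3 had that of FOXO3, and CITED2 had that of the average. Whether FOXO factors account for the levels of the targets was not tested.

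Genes known to be lowered by FOXO1, most of them from work on granulosa cells or sterol synthesis, were found on both sides. Of 16 tested, 10 were higher and 6 lower, with a median of 0.47 (-0.12 without high replicate 1 and 0.77 without low replicate 1). edgeR called 0 of them, with 2 higher and 3 lower at an unadjusted p under 0.05, beside 9.92% and 10.8% of all genes. FSHR, which encodes the receptor for follicle-stimulating hormone, stood at 22.5 and 26.0 CPM in high and at 81.6 and 85.9 CPM in low (-1.79 ± 0.21, edgeR adjusted p = 0.125). HMGCS1, of cholesterol synthesis, stood at 397 and 271 CPM against 166 and 121 CPM (1.22 ± 0.30, edgeR adjusted p = 0.169), while SREBF1, a factor that drives lipid synthesis genes, had -1.06 ± 0.35, and -0.52 without low replicate 1. LHCGR, the receptor of luteinising hormone, had 2.39 ± 0.66, and 1.17 without high replicate 1. DESeq2 called 2 of the 16 higher and 1 lower, beside 5.79% and 5.48% of all genes. Counts this small cannot place the list near or away from that background.

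The PI3K and AKT arm, which acts against FOXO proteins, had 10 of 16 tested genes higher and 6 lower, with a median of 0.27. Leaving out high replicate 2 brought that median to 0.05, and leaving out low replicate 1 to 0.41. IRS2, INSR and RICTOR count both here and among the targets. Every high library was above every low one in 8 of the 16 and below in 4 (all genes: 26.8% and 29.8%). By edgeR 0 passed after adjustment, and DESeq2 called 4 higher and 0 lower (all genes: 5.79% and 5.48%). Over all 74 tested regulators and partners of FOXO proteins, DESeq2 called 12 higher and 1 lower. The adaptor gene IRS1 stood at 260 and 182 CPM in high and at 67.7 and 86.1 CPM in low (1.52 ± 0.28, edgeR adjusted p = 0.148). PIK3R1, the main regulatory subunit of PI3K, stood at 140 and 54.5 CPM against 29.5 and 24.2 CPM (1.86 ± 0.48, and 1.01 without high replicate 1). The receptor genes INSR (0.48 ± 0.20) and IGF1R (0.60 ± 0.30) and the catalytic subunit gene PIK3CA (0.56 ± 0.23) were higher by less. IGF1R had 1.06 without low replicate 1 and 0.31 without low replicate 2. The kinase gene AKT1 stood at 197 and 205 CPM in high and at 297 and 290 CPM in low (-0.55 ± 0.20, edgeR adjusted p = 0.219). AKT2 overlapped between groups (-0.15 ± 0.26). SGK1, a kinase that shares FOXO sites with AKT, overlapped as well, at 15.5 to 22.5 CPM.

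The list of brakes on AKT signalling had 8 of 9 tested genes higher and 1 lower, with a median of 0.94 (0.44 without high replicate 2). It includes the sestrin genes SESN1 and SESN3, whose proteins restrain mTORC1 and are not direct brakes on AKT. PIK3IP1, SESN1, SESN3 and TRIB3 on this list are also among the targets. DESeq2 called 4 of the 9 higher, these same genes, and 0 lower (all genes: 5.79% and 5.48%). SESN3 had 0.94 ± 0.23, and TRIB3, a pseudokinase that binds AKT, had 1.90 ± 0.68, with 0.99 without high replicate 2 and 2.85 without low replicate 1.

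Of 10 tested genes of 14-3-3 proteins, which hold FOXO proteins in the cytoplasm, and of nuclear transport, 8 had a negative log2 fold change and 2 a positive one, with a median of -0.32. By edgeR 0 of them passed after adjustment, as with all genes tested. At an unadjusted p under 0.05, 2 were lower and 0 higher (all genes: 10.8% and 9.92%). The values furthest from 0 were those of general transport genes, RAN (-1.09 ± 0.22, edgeR adjusted p = 0.155), the GTPase that drives nuclear transport, the importin gene KPNB1 (-1.03 ± 0.37) and the exportin gene XPO1 (-0.77 ± 0.41). With 1 library left out KPNB1 ran from -1.59 (without high replicate 1) to -0.63 (without high replicate 2), and XPO1 from -1.48 to -0.30 in the same order. The 14-3-3 gene YWHAH was at 0.51 ± 0.30, and its range with 1 library left out was 0.16 to 0.79.

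Of 15 other kinases that phosphorylate FOXO proteins 7 were higher and 8 lower, with a median of -0.03 that ran from -0.09 to 0.18 with 1 library left out. DESeq2 called 3 of them higher and 0 lower (all genes: 5.79% and 5.48%). The AMPK catalytic subunit genes, whose kinase activates FOXO proteins when energy is low, were both higher. PRKAA1 stood at 45.8 and 45.4 CPM in high and at 24.7 and 21.3 CPM in low (0.99 ± 0.22, edgeR adjusted p = 0.162). PRKAA2 stood at 22.4 and 23.3 CPM against 10.3 and 7.46 CPM (1.36 ± 0.29, edgeR adjusted p = 0.160). MAPK8, which encodes the stress kinase JNK1, had 1.12 ± 0.32. CDK2, a kinase of S phase entry that also phosphorylates FOXO1, was lower in both high libraries than in either low one (-1.70 ± 0.66). Its value was -3.09 without high replicate 1 and -1.01 without high replicate 2.

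Enzymes of FOXO acetylation, methylation and ubiquitination had 5 of 13 tested genes higher and 8 lower, with a median of -0.14 that ran from -0.40 to -0.05 with 1 library left out. SIRT1, a deacetylase of FOXO proteins, stood at 55.6 and 37.4 CPM in high and at 26.3 and 24.0 CPM in low (0.89 ± 0.28, edgeR adjusted p = 0.195), and the acetyltransferase gene CREBBP at 215 and 237 against 126 and 136 CPM (0.79 ± 0.20, edgeR adjusted p = 0.171). SIRT1 had 0.56 without high replicate 1. SKP2, the ubiquitin ligase subunit that marks FOXO1 for degradation, stood at 15.2 and 6.81 CPM against 27.0 and 26.1 CPM (-1.27 ± 0.43, edgeR adjusted p = 0.207), with -1.97 without high replicate 1 and -0.81 without high replicate 2. Of 11 tested partner factors 6 were higher and 5 lower, with a median of 0.01 (-0.02 to 0.36 with 1 library left out). Among them STAT3 had 0.84 ± 0.26. NR5A1 had -1.14 ± 0.37, and from -1.74 to -0.73 with 1 library left out.

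**Figure D5:**
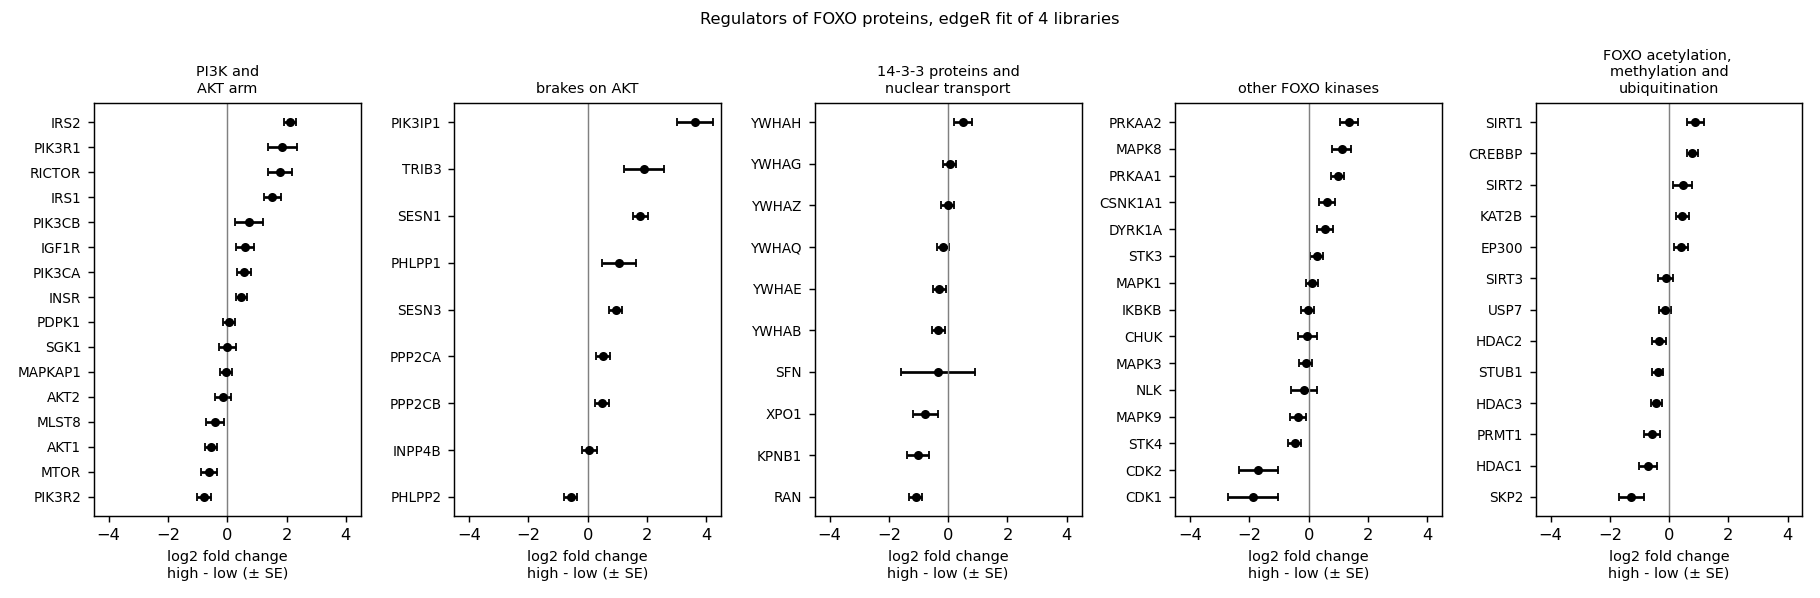
Log2 fold change, high minus low G0/G1, with its SE for the tested regulators of FOXO proteins counted here, 1 panel per list. IRS2, PIK3R1, RICTOR and IRS1 lead the PI3K and AKT arm, PIK3IP1 (3.62) leads the brakes, and CDK1 and CDK2 lie lowest among the other kinases.

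The FOXO genes were compared with the other forkhead genes, of which 40 are in the table and 18 were tested. Of these 8 were higher and 10 lower, with a median of -0.25 (-0.26 to -0.02 with 1 library left out). DESeq2 called 2 higher and 1 lower, beside 5.79% and 5.48% of all genes. The highest log2 fold change was that of FOXP2 (4.03 ± 0.71, edgeR adjusted p = 0.146), at 6.14 and 20.4 CPM in high and 0.784 and 0.832 CPM in low. FOXP1 stood at 285 and 395 CPM against 137 and 72.0 CPM (1.70 ± 0.39, edgeR adjusted p = 0.166). FOXM1, a forkhead factor of dividing cells, had 15.7 ± 13.2 CPM (SD, n = 2) in high and 60.9 ± 0.449 CPM in low (-1.96 ± 0.64, edgeR adjusted p = 0.202), with -3.27 when high replicate 1 was left out and -1.28 when high replicate 2 was. FOXL2, which maintains granulosa identity, stood at 72.8 and 29.9 CPM against 94.3 and 109 CPM (-0.99 ± 0.44), with -1.77 without high replicate 1 and -0.48 without high replicate 2. FOXO6, the remaining FOXO gene, overlapped between groups at 10.2 and 2.35 against 12.1 and 5.34 CPM (-0.48 ± 0.79, edgeR adjusted p = 0.760).

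Of the other genes in the study's title or condition, TP53INP1, which encodes a nuclear protein induced by stress, had 50.3 and 49.9 CPM in high and at 15.9 and 19.5 CPM in low. Like FOXO1, it was nearly level between the high libraries and higher in low replicate 2 than in low replicate 1. Its log2 fold change was 1.5 ± 0.23 (SE, edgeR adjusted p = 0.130). HIF1A, whose protein is stabilised when oxygen is low, overlapped between groups at 1237 and 771 against 988 and 679 CPM (0.27 ± 0.34), and its value ran from -0.12 without high replicate 1 to 0.62 without low replicate 1.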

How the data were processed

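RNA was sequenced from 4 granulosa cell libraries, 2 per group. The deposited values are whole-number read counts, 1 row per gene symbol and 1 column per library. Alignment used HISAT2 and Sscrofa11.1, per the submitters' processing notes. How reads were counted, with which annotation release and strand setting, is not given in the sources used here. Coordinates are those of RefSeq's Sscrofa11.1 annotation, matched by symbol.

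High was compared with low G0/G1 by edgeR 4.0.16 (R 4.3.3), with filterByExpr (minimum count 10, minimum total 15), TMM, glmQLFit and glmQLFTest, no covariates, Benjamini-Hochberg adjustment over 14352 genes and calls at an adjusted p under 0.05. SEs are the size of the log2 fold change divided by the root of F. Log2 CPM used a prior count of 2, and ratios a pseudocount of 0.5. DESeq2 1.42.0, limma 3.58.1 (voom), other scalings and filters, and leaving out each library were alternatives. The fit was checked on simulated counts. That check set no requirement for calling changes as small as those of the FOXO genes.

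The FOXO genes, 13 gene lists and tests were chosen with earlier results of these data known. Named genes are the FOXO genes, genes of the title and 12 pathway genes, up to 4 tested members per list with the smallest p and a mean log2 CPM of at least 1, and the 5 genes closest to each FOXO gene. FOXO6, CDK1, neighbours and marker genes were named outside this rule, after their values were seen. Some genes are not reported here and were left out of the lists. Replicate numbers follow the order of listing and pair nothing.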

Additional observations from a re-analysis of the deposited data

How the results depend on the processing

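FOXO1, FOXO3 and FOXO4 kept their direction under every alternative run, and their edgeR and limma-voom adjusted p stayed above 0.05. DESeq2 called FOXO1 at 1.33 and FOXO4 at 1.13 on the log2 scale. With 1 library left out, an alternative added after the data were seen, its calls were FOXO1 at 1.33 without either high library and FOXO4 at 1.25 without high replicate 1. The cause was not tested. edgeR called 0 genes higher and 0 lower (2977 at an unadjusted p under 0.05), 2 and 3 without a filter, and from 0 to 363 higher and 0 to 591 lower with 1 library left out, the calls coming only without high replicate 1, among them IRS2, SESN1, PIK3IP1, SELENOP, FOXP2 and TP53INP1 higher and FSHR, SKP2, CDK2, FOXM1 and FOXL2 lower. limma-voom called 0 (3124 unadjusted). DESeq2 called 767 higher and 725 lower. Leaving out high replicate 1 gave 982 and 1261 calls, high replicate 2 gave 391 and 470, low replicate 1 gave 315 and 115, and low replicate 2 gave 202 and 141. Of the genes on the FOXO lists edgeR called 0, and from 0 to 13 with 1 library left out. DESeq2 called 29 of the 140 tested with all libraries, on a background of 5.79% of all genes higher and 5.48% lower, and 51, 24, 22 and 6 list genes with the libraries left out in the same order, where it called the numbers of genes given above. The fits with 1 library left out held from 14995 to 15130 genes. Each has a lone library in 1 group, so the list counts from these fits cannot be placed near or away from a background. The 3 count ratios ranged over 0.26 to 1.01, 0.09 to 0.34 and -0.75 to -0.09 with 1 library left out, and kept their direction with pseudocounts of 0 and 5.

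Signs turned for some genes near 0. With 1 library left out, HIF1A ranged from -0.12 to 0.62, AKT2 from -0.46 to 0.10, SGK1 from -0.23 to 0.36, CAT from -0.53 to 0.15 and BBC3 from -0.04 to 1.68. SGK1 was also -0.03 with library totals only and -0.01 without a filter. The median of all genes moved by less than 0.1 on the log2 scale under each scaling. A fit with 1 library left out assumes that the lone library varies like the others. No paired analysis was possible because the labels give no replicate numbers that the groups share. The names of high replicate 2 and low replicate 2 both carry the letter W, and the labels do not say whether it marks an animal or follicle.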
